A study of Homo sapiens with 11 samples.

Results

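The miR-379 to miR-656 cluster is a run of miRNA hairpins on human chromosome 14 that lies in the imprinted DLK1-MEG3 domain. Its members were every mature arm named after 1 of 39 hairpin families between miR-379 and miR-656 and placed on chromosome 14, and 74 arms on 78 table rows met this among the 2588 mature miRNAs listed. Small RNA-seq had been run on untreated parental cells of 6 cancer cell lines, all without siRNA: A549 (lung), ES2 (ovary), MV3 (melanoma), PANC1 (pancreas), BE(2)C (neuroblastoma) and HepG2 (liver). PANC1 had 1 library and each other line had 2, which the study's methods call biological replicates, so 11 libraries were analyzed. The A549, ES2, MV3 and PANC1 libraries were made with the NEXTflex kit from 50 ng of total RNA, whereas the BE(2)C and HepG2 libraries were prepared and sequenced by Novogene. Cells were harvested 48 h upon seeding, except that BE(2)C is given as 24 h in the treatment protocol and as 48 h in the sample characteristics. Wherever a NEXTflex line is set beside BE(2)C or HepG2, the line and the preparation differ together and cannot be told apart. Each line stands for 1 cancer type with a single line, so no value extends to the tissue. The cluster was chosen by its name and position after its high level in BE(2)C was known, and the BE(2)C levels are therefore given as a description with no test.

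Imprinted genes are expressed from the copy of 1 parent, and the miRNAs of this domain are made from the maternal chromosome as introns or exons of long noncoding RNAs. Each hairpin is cut into a 5p and a 3p arm, and usually a single arm is loaded into Argonaute while its partner is degraded. The seed, bases 2 to 8 from the 5′ end, sets most of the pairing with target mRNAs. The cluster is known for high levels in brain, placenta and embryonic tissue and low levels in most adult organs.

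In the Gencode annotation of hg38, the 42 hairpins of the 74 arms covered 44.7 kb of the plus strand at chr14:101022066-101066801, with a median gap of 679 bases between neighbors. The widest gap, 5854 bases, lay between MIR495 and MIR376C. The first 13 hairpins, MIR379 to MIR495, lay within introns of the long noncoding RNA gene MEG8. Another 6 hairpins (MIR376C to MIR300) lay between MEG8 and MEG9. The last 23 lay within MEG9, where 7 overlapped an annotated exon, among them MIR382, MIR134 and MIR485, and the others were intronic.

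RefSeq (GRCh38.p14) listed a mature sequence for 73 of the 74 arms, and miR-668-3p was the arm without an entry. The sequences were 19 to 25 bases long with a median GC content of 45.5%, and they began with A in 34 arms, U in 22, G in 13 and C in 4. The arms that carried most of the reads in 1 or more lines are printed 5′ to 3′ with the seed in capitals.
miR-381-3p: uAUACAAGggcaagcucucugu
miR-379-5p: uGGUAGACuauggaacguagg
miR-409-3p: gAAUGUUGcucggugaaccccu
miR-495-3p: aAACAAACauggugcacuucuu
miR-369-3p: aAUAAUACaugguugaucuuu
miR-487b-3p: aAUCGUACagggucauccacuu
miR-543: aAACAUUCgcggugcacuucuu
These lay at chr14:101045968-101045989 for miR-381-3p, chr14:101022071-101022091 for miR-379-5p, chr14:101065346-101065367 for miR-409-3p, chr14:101033804-101033825 for miR-495-3p and chr14:101065641-101065661 for miR-369-3p. No seed is shared among these 7 arms.

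Values are CPM, the reads of an arm in every 1000000 miRNA reads of its library, and the libraries held between 1173902 reads (MV3 replicate 1) and 12137452 reads (HepG2 replicate 2). Intervals are 95% Wilson intervals and, like the 3-read detection limit, cover counting error only. That limit was 0.247 to 0.459 CPM in PANC1, BE(2)C and HepG2 and 1.12 to 2.56 CPM in the other libraries. Neuronal markers (5 of 6 found under the name sought) summed to 88477 and 108009 CPM in BE(2)C and to at most 2321 CPM elsewhere. Most of the BE(2)C sum was miR-218-5p (68764 and 88238 CPM), whereas the neuron-defining miR-124-3p reached 17.7 and 28.1 CPM. miR-9-3p was lower in BE(2)C (96.7 and 248 CPM) than in PANC1 (464 CPM). The sixth was sought as miR-137-3p, and an entry named miR-137 was at 54.9 and 153 CPM in BE(2)C. The liver list (4 miRNAs) summed to 15835 and 16456 CPM in HepG2 and to at most 4762 CPM elsewhere. Most of the HepG2 sum was miR-192-5p (15552 and 16165 CPM). The liver marker miR-122-5p was at 64.0 and 50.0 CPM in HepG2, and at 823 and 5.96 CPM in the 2 BE(2)C libraries. The melanocyte marker miR-211-5p had no read in any library, MV3 included. The other miRNA of that list, miR-204-5p, was at 70.2 and 41.0 CPM in BE(2)C and at 1.70 and 1.29 CPM in MV3. The mesenchymal list (4 miRNAs) summed to 25450 and 22367 CPM in BE(2)C and to at most 2725 CPM in the other libraries. Most of the BE(2)C sum was miR-143-3p (23979 and 18824 CPM). miR-199a-5p was at 1143 and 2982 CPM in BE(2)C and at 1234 and 1409 CPM in MV3. The epithelial list (5 miRNAs) was highest in HepG2 at 1371 and 1422 CPM. The blood list (4 miRNAs) was at 328 and 286 CPM in ES2 and at 303 and 46.9 CPM in BE(2)C. The muscle list (3 miRNAs) was highest in PANC1 at 6858 CPM. The part of these marker levels in the results on the cluster was not tested.

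The cluster supplied 25.3% and 28.2% of all miRNA reads in the BE(2)C libraries and almost none in those of HepG2. Its 74 arms summed to 252526 and 281910 CPM in BE(2)C. PANC1 had 21417 CPM (2.14%; 95% interval 2.13% to 2.15%). A549 had 6923 and 6642 CPM. MV3 had 305 and 298 CPM. ES2 had 6.61 and 63.2 CPM, and HepG2 had 15.7 and 13.8 CPM. The order of the lines was thus BE(2)C, PANC1, A549, MV3, ES2 and HepG2, with libraries of neighboring lines not overlapping except for ES2 and HepG2, whose order turned when TMM factors over all libraries were used (26.4 and 79.0 CPM). The summed level in BE(2)C was 12.5 times that in PANC1, 39.4 times that in A549, 887 times that in MV3 and 18117 times that in HepG2. With TMM factors over all libraries the same ratios were 14.4, 27.2, 1070 and 2207. The distance between BE(2)C and PANC1 rested in large part on 1 arm: without miR-381-3p, BE(2)C was at 137564 CPM ± 1529 (SD, n = 2), 6.46 times PANC1.

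**Figure D1:**
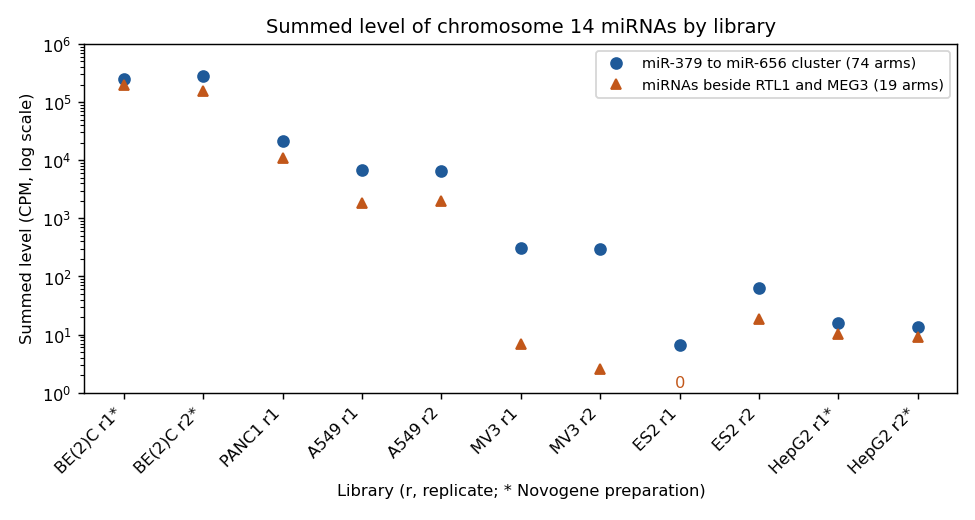
Summed level of the 74 cluster arms (circles) and of the 19 arms beside RTL1 and MEG3 (triangles) in each library, in CPM on a log axis, with Novogene libraries starred. BE(2)C lies highest for both sets, and the MV3 triangles, at 6.81 and 2.58 CPM, lie far below the MV3 circles at 305 and 298 CPM.

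The number of arms in use followed the same order. In BE(2)C every one of the 74 arms had reads in both libraries, and 63 reached a mean of 10 CPM, 45 a mean of 100 CPM, 19 a mean of 1000 CPM and 4 a mean of 10000 CPM. PANC1 had 45 arms at or above 10 CPM and A549 had 36. MV3 had 8, and neither ES2 nor HepG2 had any. Of 546 miRNAs whose mean reached 10 CPM in some line, 37.4% had both BE(2)C libraries above the 9 others, and this held for 53 of the 63 cluster arms that entered. The cluster was chosen on this contrast, so the count adds nothing to it. Around 100 CPM in BE(2)C, miR-377-3p (113 CPM) and miR-1185-2-3p (100.1 CPM) lay just above, and miR-154-5p (97.0 CPM) and miR-380-3p (85.1 CPM) just below.

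**Figure D2:**
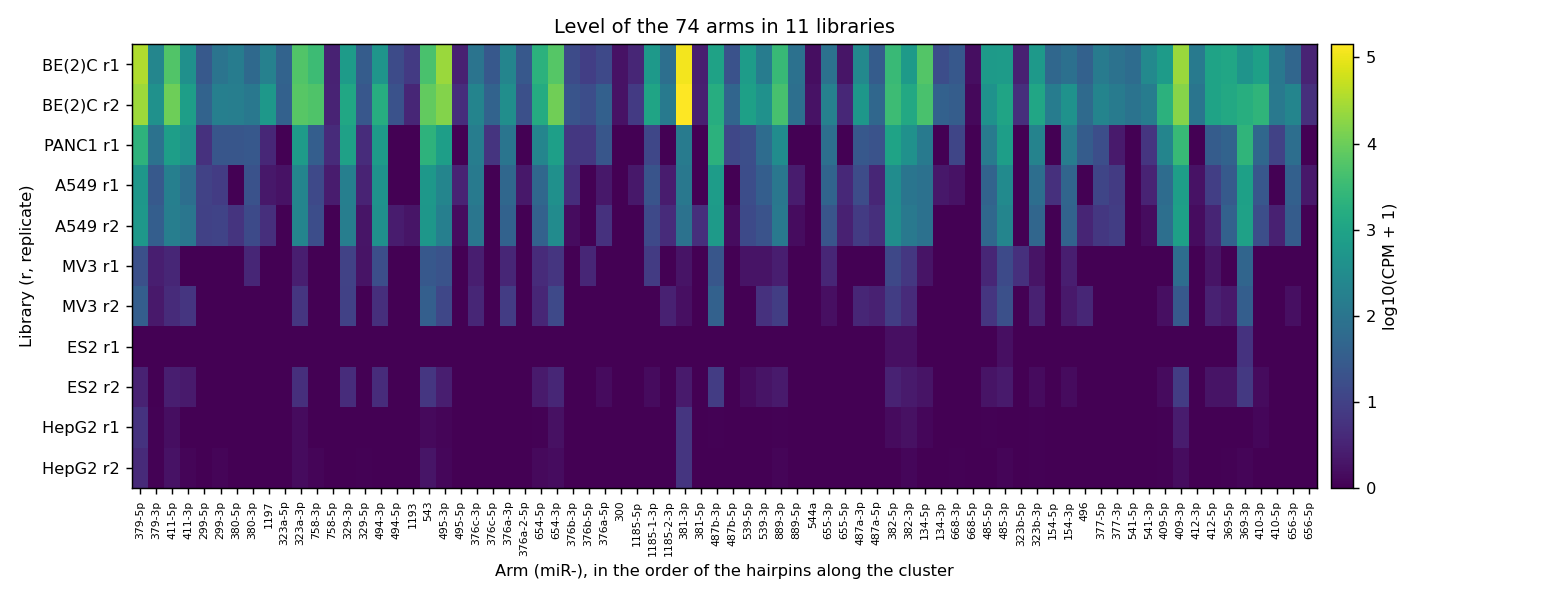
Level of each of the 74 arms, as log10(CPM + 1) in color, with arms in the order of their hairpins along the cluster and 1 row per library. Reads spread over the whole cluster in BE(2)C, PANC1 and A549, and miR-381-3p, at 116043 and 143265 CPM, is the brightest arm of both BE(2)C rows.

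miR-381-3p was the most abundant arm in BE(2)C, with 116043 CPM in replicate 1 and 143265 CPM in replicate 2. The arm reached 115 and 85 CPM in A549, 137 CPM in PANC1, at most 1.31 CPM in ES2 and MV3, and 5.22 and 5.19 CPM in HepG2. miR-379-5p, the first arm of the cluster, had 34898 and 25587 CPM in BE(2)C, 2130 CPM in PANC1 and 536 and 557 CPM in A549. It was at 17.04 and 33.6 CPM in MV3, 0 and 2.18 CPM in ES2, and 4.71 and 3.05 CPM in HepG2. For miR-379-5p the libraries of BE(2)C, PANC1, A549 and MV3 did not overlap, whereas for miR-381-3p the distance between PANC1 and the nearer A549 library was smaller than that between the A549 replicates.
miR-409-3p, near the far end, had 23652 and 16828 CPM in BE(2)C, 2974 CPM in PANC1, 760 and 851 CPM in A549, and 67.3 and 26.5 CPM in MV3. miR-495-3p, from the last hairpin within MEG8, had 24494 and 15736 CPM in BE(2)C, 793 CPM in PANC1 and 222 and 171 CPM in A549. These 4 arms alone had a mean above 10000 CPM in BE(2)C, although miR-654-3p (10951 CPM) and miR-411-5p (10421 CPM) also passed it in replicate 2. The next were miR-654-3p (mean 8536 CPM ± 3416, SD, n = 2), miR-411-5p (8068 ± 3327), miR-543 (6610 ± 2524), miR-323a-3p (6157 ± 614), miR-134-5p (5385 ± 891), miR-758-3p (4393 ± 1334), miR-889-3p (3757 ± 1067) and miR-382-5p (3259 ± 188). Among these, miR-134 is known in neurons as a local repressor of translation in dendrites. Its 5p arm was at 6015 and 4755 CPM in BE(2)C, 132 CPM in PANC1, 82.0 and 83.0 CPM in A549 and at most 0.871 CPM in the ES2 and MV3 libraries.

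Several arms took different shares of the cluster's reads in the 2 preparations, and others did not. miR-381-3p gave 46.0% and 50.8% of the cluster's reads in BE(2)C and 33.2% and 37.7% in HepG2, the other Novogene line. In the NEXTflex libraries its share was 0 to 2.07%. miR-369-3p went the opposite way, with 0.181% and 0.596% in BE(2)C and 0 and 1.198% in HepG2, against 9.66% to 15.1% in the NEXTflex libraries other than ES2 replicate 1. miR-487b-3p followed miR-369-3p, at no more than 0.569% in any Novogene library and 7.54% to 13.2% in the same NEXTflex libraries. miR-543 had 1.91% and 2.98% in BE(2)C and 2.14% and 7.19% in HepG2, against 8.15% to 11.9% in these NEXTflex libraries. miR-409-3p, by contrast, was among the leading arms of both preparations, at 3.59% to 9.37% in Novogene and 8.89% to 22.1% in these NEXTflex libraries. miR-495-3p had 9.70% and 5.58% in BE(2)C, 1.07% and 1.80% in HepG2 and 2.57% to 6.42% in these NEXTflex libraries. miR-379-5p had 13.8% and 9.08% in BE(2)C, 29.9% and 22.2% in HepG2 and 3.45% to 11.3% in these NEXTflex libraries. The HepG2 shares rest on 187 and 167 cluster reads, of which 62 and 63 were miR-381-3p. Outside ES2 replicate 1, the shares of miR-381-3p, miR-369-3p, miR-487b-3p and miR-543 did not overlap between the preparations. For miR-543 the nearest shares were 7.19% in HepG2 replicate 2, from 12 reads, and 8.15% in A549 replicate 2. Overlap was not counted for the other arms or for other miRNAs, so it is not known how common its absence is. The part of the preparation cannot be told apart from that of the lines.

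**Figure D3:**
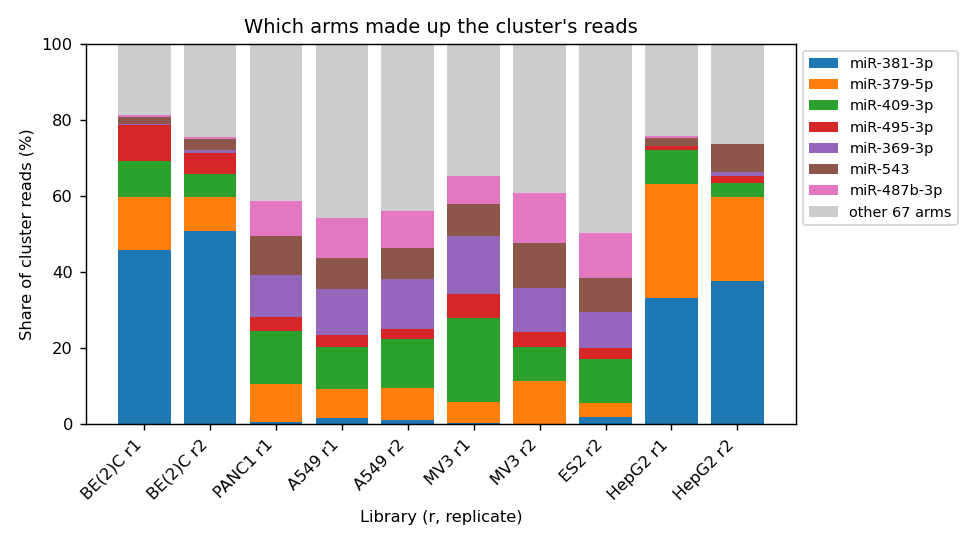
Share of the cluster's reads (%) taken by 7 arms and by the other 67 in 10 libraries, leaving out ES2 replicate 1, which held 11 cluster reads. miR-381-3p takes 33.2% to 50.8% in the BE(2)C and HepG2 bars and at most 2.07% in the others.

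Arm by arm, BE(2)C did not exceed PANC1 by a common factor. Over the 45 arms at or above 10 CPM in both, the ratio of the BE(2)C mean to PANC1 had a median of 4.29 and ran from 0.451 (miR-369-3p) to 943 (miR-381-3p), with 33 arms above 2 and 3 below 1. The same counts were not made over all miRNAs, and the cluster was chosen with its BE(2)C level known. They therefore cannot be read as a trait of the cluster. miR-758-3p (133), miR-1185-1-3p (67.9) and miR-539-5p (48.0) also had high ratios. Those below 1 were miR-369-3p, miR-487b-3p (0.637) and miR-376c-3p (0.995). miR-369-3p, whose human form has been studied on AU-rich elements of TNF mRNA, had 457 and 1680 CPM in BE(2)C, 2368 CPM in PANC1 and 838 and 883 CPM in A549, so BE(2)C overlapped A549 and lay below PANC1. miR-487b-3p had 955 and 1604 CPM in BE(2)C, 2009 CPM in PANC1 and 721 and 642 CPM in A549. miR-329-3p (666 and 1174 CPM in BE(2)C, 903 CPM in PANC1) straddled the PANC1 value. In all, 15 of the 74 arms did not have both BE(2)C libraries above all others. Across 44 of these arms with a sequence entry, the log2 ratio had a Spearman correlation of 0.227 with GC content and 0.0023 with position along the cluster, given as a description, since the arms share the same 3 libraries. The median ratio was 8.97 for the 16 arms beginning with U and 3.01 for the 19 beginning with A, with ranges that overlapped.

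**Figure D4:**
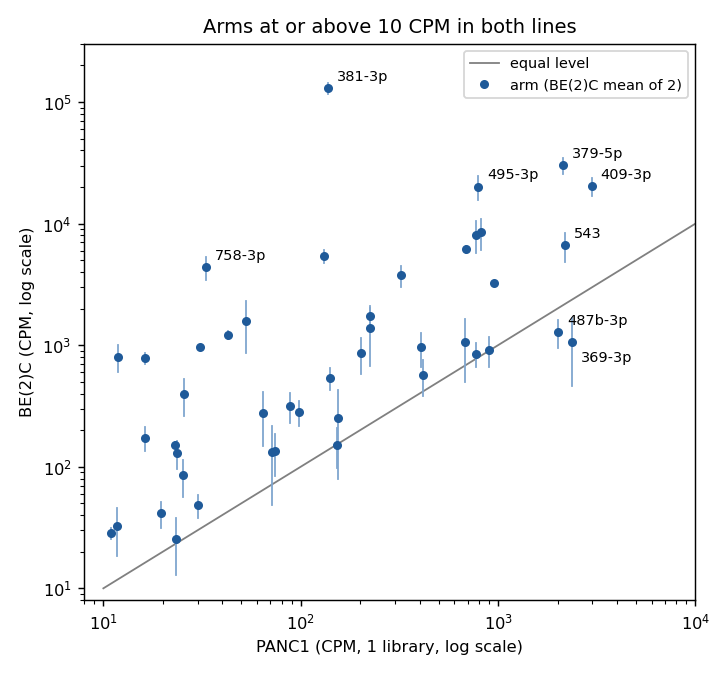
Level in BE(2)C (mean of 2 libraries, vertical lines joining both) against PANC1 (1 library) for the 45 arms at or above 10 CPM in both, in CPM on log axes, with the line of equal level. miR-381-3p lies farthest above the line with a ratio of 943, and miR-369-3p farthest below with 0.451.

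The relative order of the arms was most alike within BE(2)C and among the PANC1 and A549 libraries. Across the 74 arms, the Spearman correlation was 0.975 between the BE(2)C libraries, 0.921 between those of A549 and 0.887 and 0.928 between PANC1 and the A549 libraries. PANC1 and BE(2)C gave 0.813 and 0.863, and A549 and BE(2)C gave 0.802 to 0.869. ES2 replicate 2 gave 0.832 with PANC1 and 0.818 and 0.823 with the A549 libraries. MV3 and A549 gave 0.722 to 0.823. MV3 and PANC1 gave 0.746 and 0.850. Lower values were 0.718 between the MV3 libraries, 0.646 between those of HepG2, 0.600 to 0.708 between MV3 and BE(2)C and 0.443 to 0.554 between MV3 and HepG2. In the MV3 libraries 41 and 40 arms had no read, and in the HepG2 libraries 55 and 52, so many ranks were tied. The lower values cannot be read as a different order of the arms. These are descriptions over arms, which share a library and often a transcript. The split of reads along the cluster was counted in the 10 libraries with at least 100 cluster reads. Arms from the MEG8 introns gave 27.4% to 45.2% of the reads, those between MEG8 and MEG9 gave 3.38% to 9.09%, and those within MEG9 gave 48.8% to 68.0%. Within MEG9, miR-381-3p gave 872748 of 1222018 reads in BE(2)C replicate 1 and 936966 of 1253020 in replicate 2. In PANC1 it gave 1340 of 109962. The ranges therefore do not show that the other arms were split alike.

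Between the 2 BE(2)C libraries, cluster arms leaned toward replicate 2. Of the 45 arms at or above 100 CPM, 37 were higher in replicate 2, with a median log2 ratio of 0.75 and a range of -0.89 to 2.42. Of the 186 other miRNAs above the same level, 118 were higher in replicate 2 and the median log2 ratio was 0.30. Of the 13 arms beside RTL1 and MEG3, 7 were higher in replicate 2. The highest ratios were those of miR-154-3p (79.9 and 426 CPM), miR-656-3p (48.5 and 217 CPM) and miR-369-3p (457 and 1680 CPM). The lowest were those of miR-541-3p (269 and 146 CPM), miR-495-3p (24494 and 15736 CPM) and miR-485-5p (648 and 426 CPM). A BE(2)C mean of a single arm can thus hide a spread of more than 5-fold between libraries.

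Most of the cluster's hairpins with a 5p and a 3p arm listed gave mainly 3p reads. In BE(2)C, 31 such hairpins had at least 100 reads in each library, and 22 in replicate 1 and 23 in replicate 2 gave more 3p than 5p reads. Hairpins without such a pair of names, such as miR-543, were left out, and so was miR-376a. At the 3p end stood miR-381 (99.9985% and 99.9987% 3p, from 872761 and 936978 reads), miR-495 and miR-758. At the 5p end stood miR-134 (0.256% and 0.804% 3p), miR-379 (0.648% and 1.56%) and miR-411 (6.24% and 6.79%). The arms of 17 hairpins could be compared in A549, PANC1 and BE(2)C. None of them gave mainly 3p reads in all A549 and PANC1 libraries and mainly 5p reads in both BE(2)C libraries, or the reverse.
In 11 of these 17 hairpins the 3p share was higher in all 3 A549 and PANC1 libraries than in both BE(2)C libraries. It was lower in none, and the ranges overlapped in 6. The same count was not made for hairpins outside the cluster, so it cannot be read as a trait of the cluster. Several of the 11 gaps between mean 3p shares were small, such as 0.34 points in miR-323b, 0.56 in miR-323a and 1.57 in miR-889. The widest gap was in miR-369, whose 3p share was 96.8% and 95.8% in A549 and 98.2% in PANC1, against 29.0% (95% interval 28.2% to 29.9%) and 56.2% (55.5% to 56.9%) in BE(2)C. Its 2 BE(2)C libraries therefore differed in which arm led. miR-411 followed with 30.6%, 39.3% and 35.1% against 6.24% and 6.79%, and miR-485 had 87.6%, 80.6% and 84.5% against 50.6% and 70.8%. Preparation and line cannot be told apart here either.

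**Figure D5:**
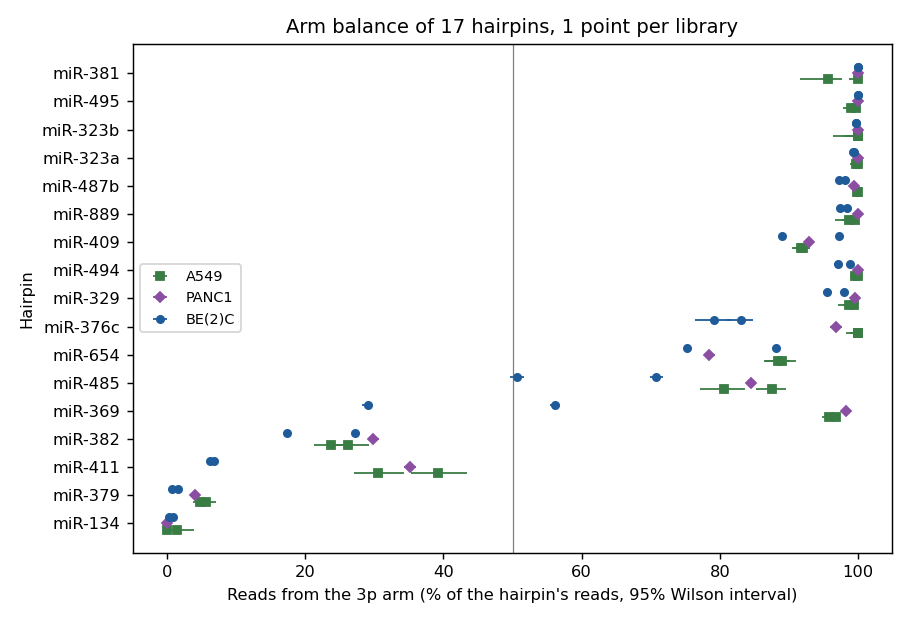
Share of reads from the 3p arm (%) for 17 hairpins, 1 point per library with its 95% Wilson interval, in A549, PANC1 and BE(2)C. miR-369 shows the widest separation, with A549 and PANC1 at 95.8% to 98.2% and BE(2)C at 29.0% and 56.2%.

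Among the arms with a sequence, 21 shared their seed with another member, in 10 groups over 62 distinct seeds. The groups are printed because arms with 1 seed can pair with the same target sites while their levels differ, with the seed in capitals.
miR-381-3p: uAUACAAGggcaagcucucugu
miR-300: uAUACAAGggcagacucucucu
miR-379-3p: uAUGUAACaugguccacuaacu
miR-411-3p: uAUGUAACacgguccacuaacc
miR-487a-3p: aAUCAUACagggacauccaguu
miR-154-3p: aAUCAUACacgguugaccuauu
miR-654-5p: uGGUGGGCcgcagaacaugugc
miR-541-3p: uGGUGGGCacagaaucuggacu
miR-539-3p: aUCAUACAaggacaauuucuuu
miR-485-3p: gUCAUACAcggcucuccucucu
miR-376a-3p: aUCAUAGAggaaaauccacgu
miR-376b-3p: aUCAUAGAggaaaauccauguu
miR-1185-1-3p: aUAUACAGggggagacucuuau
miR-1185-2-3p: aUAUACAGggggagacucucau
miR-494-5p: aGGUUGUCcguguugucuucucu
miR-323b-5p: aGGUUGUCcguggugaguucgca
miR-410-5p: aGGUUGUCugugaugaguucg
The most unequal pair was miR-381-3p and miR-300, whose means in BE(2)C were 129654 and 0.781 CPM, and miR-300 had no read in any other line. miR-376a-3p stood at 282 CPM in BE(2)C and 98.2 CPM in PANC1, whereas miR-376b-3p stood at 17.5 and 5.75 CPM. miR-1185-1-3p had a mean of 801 CPM and miR-1185-2-3p of 100.1 CPM in BE(2)C. Other pairs were closer: miR-411-3p and miR-379-3p had 570 and 317 CPM in BE(2)C and 418 and 88.5 CPM in PANC1. In the pair of miR-154-3p and miR-487a-3p the order depended on the line, since BE(2)C had 253 and 393 CPM and PANC1 had 155 and 25.5 CPM. The other groups were miR-376c-5p with miR-376b-5p and miR-487a-5p with miR-487b-5p, all with means of at most 41.4 CPM in BE(2)C. How the counting treated reads that fit more than 1 such near-identical arm is not given in the sources used here, so values within these pairs are uncertain. Outside the cluster, the listed miRNA with the highest level that shared a member's seed was miR-362-3p (seed of miR-329-3p), at 45.3 CPM in PANC1 and at most 9.02 CPM in the other libraries.

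Within the NEXTflex preparation the lines could be tested. limma was fitted to log2(CPM + 1) of 453 miRNAs whose mean reached 10 CPM in 1 or more NEXTflex lines, with Benjamini-Hochberg adjustment over all 453. Of the 74 arms, 45 entered, all of them at or above 10 CPM in PANC1 and 36 of them in A549, and the other 29 were not tested. An arm that entered through A549 or PANC1 was high there by that filter, so the counts describe and do not add support. Differences on this scale understate the change of arms near 0.

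A549 exceeded ES2 in most of the arms tested. Of the 45 arms, 41 were higher in A549 at an adjusted p under 0.05 against 26.5% of all 453 miRNAs called higher in A549. None was higher in ES2 by limma, at an unadjusted p under 0.05 or by edgeR or DESeq2. The median log2 difference of the 45 arms was 5.26, and that of all 453 miRNAs was -0.26. With the 12 arms without an ES2 read set to the 3-read limit there, and 3 arms below the limit in both lines left out, the median was 5.46. miR-379-5p had the largest called difference (log2 difference 8.26 ± 0.65 SE, adjusted p = 0.000439), followed by miR-409-3p (8.12 ± 1.10, adjusted p = 0.00268) and miR-487b-3p (7.88 ± 1.05, adjusted p = 0.00249). This order and these sizes depended on the ES2 libraries. Without ES2 replicate 1 the log2 differences of these 3 arms were 7.43, 6.58 and 6.34, and without ES2 replicate 2 they were 9.10, 9.65 and 9.41, so that miR-409-3p then came first. miR-369-3p, at 838 and 883 CPM in A549 and 4.81 and 6.10 CPM in ES2, had the lowest adjusted p of the 45 arms (7.07 ± 0.20, adjusted p = 2.25e-05). Called differences of miR-543, miR-494-3p, miR-654-3p, miR-382-5p, miR-485-3p and miR-495-3p lay between 6.89 and 7.75, and that of miR-543 was 6.38 without ES2 replicate 1 and 9.12 without ES2 replicate 2. The 4 arms not called, miR-380-5p, miR-487b-5p, miR-668-3p and miR-496, were at 0.243 to 2.43 CPM in A549 and had passed the filter through PANC1.

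A549 exceeded MV3 in 38 of the 45 arms, against 23.2% of all 453 miRNAs called higher in A549, and no arm was higher in MV3 by limma, at an unadjusted p under 0.05 or by edgeR or DESeq2. The median log2 difference was 4.02, also with 6 arms at the 3-read limit and 2 left out, beside -0.58 over all 453. miR-134-5p, with 1 and 0 reads in MV3, had the highest fitted difference (5.94 ± 0.50 SE, adjusted p = 0.000524), followed by miR-381-3p (5.84 ± 0.51, adjusted p = 0.000606) and miR-409-5p (5.81 ± 0.40, adjusted p = 0.000295). The order depended on the scale: with a pseudocount of 5 miR-134-5p was at 4.02 and miR-494-3p at 4.89, and with TMM factors over the NEXTflex libraries miR-134-5p was at 6.55 and miR-323a-3p at 6.58. miR-323a-3p, miR-494-3p, miR-411-5p, miR-654-3p, miR-376c-3p, miR-411-3p and miR-382-5p differed by 4.93 to 5.79. The calls of miR-494-3p (adjusted p = 0.0597 and 0.0570) and miR-411-3p (0.0615 and 0.0756) were lost without A549 replicate 1 and without A549 replicate 2. miR-323a-3p, for example, had 226 and 224 CPM in A549 and 1.70 and 5.16 CPM in MV3. The cluster as a whole was 22.5 times lower in MV3 than in A549.

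MV3 and ES2, which both had low cluster levels, differed in fewer arms. MV3 was higher in 12 of the 45 arms, against 28.5% of all 453 miRNAs called higher in MV3, so the share of arms was near the background. The count was 16 with all 11 libraries in the fit, and 17 of 24 with a filter of 100 CPM. The share of all miRNAs called under these settings was not counted, so neither count can be set against a background. ES2 was higher in none by limma, against 14.8% of all 453, and none was higher in ES2 at an unadjusted p under 0.05 or by edgeR or DESeq2. The 12 called arms were miR-369-3p, miR-379-5p, miR-379-3p, miR-409-3p, miR-543, miR-495-3p, miR-485-3p, miR-485-5p, miR-382-5p, miR-382-3p, miR-376a-3p and miR-376c-3p. miR-369-3p had 46.0 and 34.2 CPM in MV3 and 4.81 and 6.10 CPM in ES2 (log2 difference of ES2 to MV3 -2.66 ± 0.20 SE, adjusted p = 0.000702). miR-409-3p had 67.3 and 26.5 CPM in MV3 and 0 and 7.41 CPM in ES2 (-3.90 ± 1.10, adjusted p = 0.0437). That call was lost under 10 of 16 alternatives, among them TMM factors (adjusted p = 0.0724), a pseudocount of 0.5 (0.0621), no filter (0.128), DESeq2 (0.0839), a replicate block (0.0702) and 5 of 6 fits that left out 1 library, and it was kept without ES2 replicate 2 (0.0151). The calls of miR-485-5p and miR-543 were lost under 11 and 7 of 16 alternatives. miR-376a-3p and miR-376c-3p had no read in either ES2 library. The count fell to 7 without A549 replicate 1 or without A549 replicate 2, to 6 without MV3 replicate 1 and to 7 without MV3 replicate 2, and was 8 without ES2 replicate 1 and 12 without ES2 replicate 2. An F test over A549, ES2, MV3 and PANC1 called 44 of the 45 arms and 85.4% of all 453 miRNAs, and the arm not called was miR-1185-1-3p (adjusted p = 0.0585).

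PANC1, with a single library, was compared with A549 by value only. The ratio of PANC1 to the A549 mean had a median of 2.88 over the 36 arms at or above 10 CPM in both lines, with a range of 0.702 (miR-1185-1-3p) to 5.49 (miR-329-3p). The median over all 273 miRNAs at this level was 1.77. PANC1 was more than 2 times A549 in 36 of 45 arms at or above 10 CPM in either line, against 52.2% of 391 miRNAs, and 9 of these 45 arms entered only through PANC1. Among those at or above 10 CPM in both lines, the count was 28 of 36 arms beside 125 of 273 miRNAs (45.8%). miR-381-3p (1.37), miR-539-5p (1.11) and miR-369-5p (1.27) were near equal in both lines, whereas miR-654-5p (5.01) and both arms of miR-411 (4.76 each) were higher in PANC1.

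The 2 ES2 libraries disagreed on the cluster. Replicate 1 held 11 cluster reads, 8 of them miR-369-3p, in 4 arms. Replicate 2 held 145 reads in 30 arms, led by miR-409-3p and miR-487b-3p with 17 reads each. At the rate of replicate 2, replicate 1 would have held 105 reads. The arms beside RTL1 and MEG3 had 0 reads in replicate 1 and 43 in replicate 2. Other miRNAs that were high in A549 or PANC1 did not all move in the same way: miR-192-5p was at 65.5 and 64.9 CPM in ES2 (A549 2874 and 2585 CPM), miR-194-5p at 63.1 and 51.9 CPM (A549 1883 and 1899 CPM) and miR-1-3p at 1.80 and 0 CPM (PANC1 6273 CPM), while miR-143-3p was at 7.82 and 21.4 CPM (A549 1525 and 1553 CPM). Without ES2 replicate 1 the ES2 level was 63.2 CPM, and without ES2 replicate 2 it was 6.61 CPM.

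Upstream in the same domain lie the miRNAs beside RTL1 and MEG3, a list of 19 arms that includes miR-127, miR-370, miR-493 and miR-432. Their sum followed that of the cluster in BE(2)C (196060 and 153467 CPM), PANC1 (11072 CPM) and A549 (1828 and 1955 CPM). The share of the cluster in the reads of both sets was 56.3% and 64.8% in BE(2)C, 65.9% in PANC1, 79.1% and 77.3% in A549, 60.3% and 60.5% in HepG2 and 77.1% (95% interval 70.6% to 82.6%) in ES2 replicate 2. ES2 replicate 1 was at 100% (74.1% to 100%) from its 11 reads. MV3 had 97.8% (95.7% to 98.9%) and 99.1% (97.8% to 99.7%), resting on 8 and 4 reads of the 19 arms beside 358 and 461 cluster reads. MV3 was below A549 by 22.5-fold in the cluster and by 403-fold in the arms beside RTL1 and MEG3, which became 733-fold without MV3 replicate 1 and 278-fold without MV3 replicate 2. The interval of ES2 replicate 1 holds both MV3 shares. In the limma fit, 13 of the 14 arms of this list that entered were higher in A549 than in MV3 and 13 were higher in A549 than in ES2. Between ES2 and MV3 none of the 14 was called by limma, none had an unadjusted p under 0.05 there, DESeq2 called none and edgeR called 1, higher in ES2. The cluster's own 12 calls between these lines were in the direction of MV3, and the difference between both sets was not tested.

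The miRNAs outside the cluster whose log2(CPM + 1) followed the summed cluster most closely over the 11 libraries were miR-432-5p (Pearson's r = 0.975), miR-126-3p (0.962), miR-431-5p (0.954), miR-136-3p (0.952) and miR-127-5p (0.952), out of 483 compared. Of these 5, 4 lie beside RTL1 in the domain. miR-126-3p, the endothelial miRNA from an intron of EGFL7, does not. Libraries of 1 line are not independent here, so these values are a description. The imprinted miRNA cluster of chromosome 19 (61 names) was at or below 7.45 CPM in every library, BE(2)C included.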

How the data were processed

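Small RNA-seq tables of 6 lines (11 libraries) were used. The authors deposited CPM values per library. For 5 lines these were scaled within each table, so that totals of the deposited signal columns differ from 1000000, and for PANC1 they were plain CPM. The submitters' processing notes name cutadapt 1.14, Bowtie2 2.3.2, SAMtools 1.5, featureCounts 1.5.3, edgeR 3.30.3 and the build hg38; their roles for small RNA are not given in the sources used here. Deposited values were whole multiples of 1 read (100% within 0.02), so whole reads were recovered and CPM recomputed per library (1173902 to 12137452 reads), with genomic copies of 1 name summed.

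The members and all lists were chosen with earlier results of these data known. BE(2)C and HepG2 were described only. The NEXTflex lines (7 libraries) were fitted in limma 3.58.1 (R 4.3.3) on log2(CPM + 1) with a trended prior, a filter of 10 CPM in a line mean, and Benjamini-Hochberg adjustment at 0.05. On simulated data for A549 against ES2, 180 of 181 miRNAs changed 4-fold were recovered among 397 tested, with 5 false calls. The simulated libraries were drawn from the mean levels over the NEXTflex libraries with a single fixed spread. They did not carry the near-0 ES2 levels of the cluster arms or the distance between the ES2 replicates. The recovery therefore does not bear on such calls. Alternatives were edgeR 4.0.16 and DESeq2 1.42.0 on recovered reads, TMM factors, other pseudocounts and filters, a replicate block and leaving out libraries. Named arms were the 12 highest in BE(2)C, the 8 highest in other lines, the 3 highest and 3 lowest BE(2)C replicate ratios and 3p shares, up to 10 calls per test, the 5 most similar miRNAs, arms that share a seed and arms nearest 100 CPM in BE(2)C; others in the text were added as illustrations after their values were seen. Sequences are from RefSeq (GRCh38.p14) and positions from Gencode for hg38.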

Additional observations from a re-analysis of the deposited data

How the results depend on the processing

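The direction of each of the 30 named differences between NEXTflex lines held under every alternative run for them, which gave 479 values. Of these, 435 kept an adjusted p under 0.05, 44 did not and 0 reversed. With a filter of 100 CPM, 24 arms were tested, and all 24 were called in A549 against ES2, in A549 against MV3 and in the F test, and 17 of the 24 in ES2 against MV3. With all 11 libraries in the fit, 16 of 45 arms were called in ES2 against MV3. Leaving out 1 library gave 36 to 39 called arms for A549 against ES2, 30 to 36 for A549 against MV3, 6 to 12 for ES2 against MV3 and 39 to 44 for the F test. Replicate numbers did not pair the samples: deviations of same-numbered samples correlated by -0.06 (A549 and ES2), 0.03 (A549 and MV3) and 0.01 (ES2 and MV3). A replicate block gave 40, 37, 11 and 44 called arms in the same order of tests. TMM factors over the NEXTflex libraries moved the median of all tested miRNAs from -0.26 to 0.14 (A549 against ES2), from -0.58 to 0.17 (A549 against MV3) and from -0.44 to -0.03 (ES2 against MV3), and gave 43, 42 and 8 called arms. The share of all tested miRNAs called was not counted under these alternatives, so their counts of called arms have no background beside them.

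TMM factors over all libraries gave summed levels of 6402 CPM in A549, 163 CPM in MV3, 12137 CPM in PANC1, 174435 CPM in BE(2)C and 79.0 CPM in HepG2, with 5 arms at 10 CPM or more in MV3 and 2 in HepG2. Under that scaling HepG2 lay above ES2 (26.4 CPM). Using only arms with 1 table row gave 6570 CPM in A549, 287 CPM in MV3 and 20412 CPM in PANC1. At a minimum of 1 CPM, 10 arms were counted in ES2, 32 in MV3 and 2 in HepG2. At 100 CPM, 17 were counted in A549, 24 in PANC1 and 0 in MV3. Leaving out 1 library gave 6642 to 6923 CPM in A549, 6.61 to 63.2 CPM in ES2, 298 to 305 CPM in MV3, 252526 to 281910 CPM in BE(2)C and 13.8 to 15.7 CPM in HepG2. The causes of these changes were not tested, except that a higher filter tests fewer arms. ES2 and HepG2 values rest on 11 to 187 cluster reads per library.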
